A study of Mus musculus with 3 samples.

Results

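Dppa3, also called Stella or PGC7, encodes a small protein that the egg stores for the early embryo. In mouse it is known to bind chromatin derived from the mother in the zygote and to shield it from TET3, the enzyme that starts the loss of DNA methylation there. It also binds UHRF1, the factor that brings the methyltransferase DNMT1 to DNA, and holds it out of the oocyte nucleus. The gene is 1 of 55450 in the annotation used, and it was taken from the mm9 region chr6:122576001-122581000, where its 4 exons were matched to the read coverage.

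Total RNA of ovulated oocytes from 3 litters was sequenced, with 1 library for each litter and 1 group in all. The females were LSD1 FL/FL and ZP3::Cre negative on a mixed strain background, so they carried floxed LSD1 alleles without the transgene that deletes LSD1 in growing oocytes, and the series names them wild type. They had been superovulated, eggs were collected by E0.5, and the RNA was amplified by SPIA, a linear isothermal method, with the Nugen Ovation kit. The sources used here do not state how many females or oocytes stand behind a library, nor their age. The libraries held 32028802 alignments in litter 3, against 35183199 in litter 1 and 31787887 in litter 2, each 72 bases long without gaps. Of these, 85.2% to 85.6% repeated a start, counting the alignments of a library beyond the first at each base. No label sets litter 3 apart from the other litters. A sign-flip test over 3 litters could not go under an exact two-sided p of 0.25, so the levels, exon values and ratios of Dppa3 are descriptions with no test. Only counts in 1 kb windows were tested, and only against counting error.

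A few sequences show where gapless reads of the Dppa3 transcript could be placed. Exon 3 has 36 bases, shorter than an alignment, so no alignment could lie wholly within it. Reads that run well across an exon border could not be placed on chromosome 6 either, where an intron follows. They could be placed on an intronless copy, Dppa3-ps, which the annotation lists on the X chromosome as a transcribed processed pseudogene. The 2 borders printed join the last 20 bases of the earlier exon, in capitals, to the first 20 of the later one.
Dppa3 exon 3: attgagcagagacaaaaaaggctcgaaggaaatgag
Dppa3 exon 1 to exon 2: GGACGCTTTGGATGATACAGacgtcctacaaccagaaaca
Dppa3 exon 3 to exon 4: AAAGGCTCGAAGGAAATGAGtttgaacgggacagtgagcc
The coding part of exon 4 is printed beside its counterpart in the copy, with the single base that differs in capitals, at base 11 of the exon.
Dppa3 exon 4: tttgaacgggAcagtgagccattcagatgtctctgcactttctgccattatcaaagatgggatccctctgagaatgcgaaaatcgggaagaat
Dppa3-ps: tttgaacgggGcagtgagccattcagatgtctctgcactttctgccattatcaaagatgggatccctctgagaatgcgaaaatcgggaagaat

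A read within the coding part of exon 4 thus differs from the copy by at most 1 base. Over the 451 bases that the annotated copy shares with the transcript, there were 8 mismatches and 0 gaps, an identity of 98.2%. These mismatches fell 2 in exon 1, 5 in exon 2, 0 in exon 3 and 1 in exon 4. Of the 762 pieces of 72 bases in the 833-base transcript, 40 occurred without a mismatch in the annotated copy and 340 with 1 to 3 mismatches. Coverage of the copy, described below, ran over 827 bases, so further pieces may have a counterpart outside the 451 annotated bases. Among annotated transcripts, 7 pseudogenes shared a piece of 20 bases with Dppa3, and Dppa3-ps was the only one that shared pieces of 72. Reads of Dppa3 and of the copy can therefore not be told apart over part of the transcript, which touches each level given here.

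Dppa3 was read at a high level in all 3 litters, with 1 litter far above the others. The 5 kb region held 48982 alignments in litter 3, against 7328 in litter 1 and 5004 in litter 2. As CPM, the count for every 1000000 alignments of a library, this was 1529 in litter 3 (Wilson 95% bounds 1516 to 1543), against 208 in litter 1 (204 to 213), and 157 in the library of litter 2 (153 to 162). The mean was 632 ± 778 CPM (SD, n = 3), and the highest litter was 9.71 times the lowest. Without litter 3 the mean was 183 CPM and the ratio 1.32. The intervals cover counting error only, since amplified reads are not independent molecules. CPM is a share of a library, so in such bulk samples it does not give the amount of Dppa3 RNA in each oocyte.

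The number of different start positions was close to equal in the 3 litters. Alignments began at 474 different bases of the region in litter 3, against 459 in litter 1 and 463 in litter 2. When each start was counted once and scaled to all start positions used in the library, the highest litter was 1.11 times the lowest. By exon the litters differed more. In exon 4, 271 of 292 possible starts were used in litter 3, against 249 in litter 1 and 232 in litter 2. Exon 1 had 84 used starts in litter 3, against 99 in litter 1 and 94 in litter 2. Exon 2 had 94, 92 and 110 in litters 3, 1 and 2. The count of used starts cannot pass the number of possible starts, whatever the level. Why the totals of the region were close was not tested.

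The sequence before Dppa3 was nearly silent, and that after it was read mostly in 1 stretch. The 20 kb before the region held 0 alignments in litter 3, against 2 in litter 1 and 0 in litter 2, where a count of 0 allows up to 0.0937 CPM in litter 3 and 0.0944 CPM in litter 2. The 20 kb after it held 97 alignments in litter 3, against 483 in litter 1 and 576 in litter 2. Most of these lay in 1 stretch, chr6:122594484-122594780, with 92, 405 and 519 alignments in litters 3, 1 and 2. That is 2.87, 11.5 and 16.3 CPM, against 6.84, 6.48 and 12.2 CPM in exon 2 of Dppa3. The annotation puts Gm26168, 2.75 kb away, and Gdf3, a growth factor gene 16.3 kb away, before Dppa3 on the chromosome, and Nanog, a pluripotency gene, 77.2 kb after it. It lists no gene in the 20 kb after Dppa3. Gdf3 and Nanog were not placed by their exons, since 1476 and 42 separate places on the chromosome met the criteria. Placing Gm26168 was not tried.

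The region was above its flanks in each litter. Per kb, the region had 306, 41.7 and 31.5 CPM in litters 3, 1 and 2, against 0.0757, 0.345 and 0.453 CPM per kb in both flanks together. The log2 difference, with 0.5 CPM per kb added to both, was 9.06 in litter 3, against 5.64 in litter 1 and 5.07 in litter 2 (6.59 ± 2.16, SD, n = 3). It was positive in 3 of 3 litters.

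Matched to the coverage, the exon structure of Dppa3 fell at chr6:122576421-122580283 on the plus strand. At that place 99.7% of the 61314 alignments in the span, summed over the litters, lay wholly within exons. Places from 122576306 to 122576433 met the criteria, and no other place in the region did. Over the whole of chromosome 6, 68 separate places met them, so the structure alone does not single out the gene and the region stated for Dppa3 was used. The best place by start positions, in place of alignments, was 11 bases further on, at 122576432, with 93.6% of starts within exons.

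The coverage itself showed 3 blocks where 3 of the 4 exons were put. Exon 1, with 113 untranslated and 88 coding bases, was put at 122576421-122576621 and its block at 122576435-122576632. Exon 2, all coding, was put at 122578588-122578820 and its block at 122578586-122578832. Exon 4, with 93 coding and 270 untranslated bases, was put at 122579921-122580283 and its block at 122579920-122580297. The blocks ran 11 to 14 bases past the 3' ends of the exons put there, so borders are known to about that distance. Over the 36 bases of exon 3 there was no coverage.

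**Figure D1:**
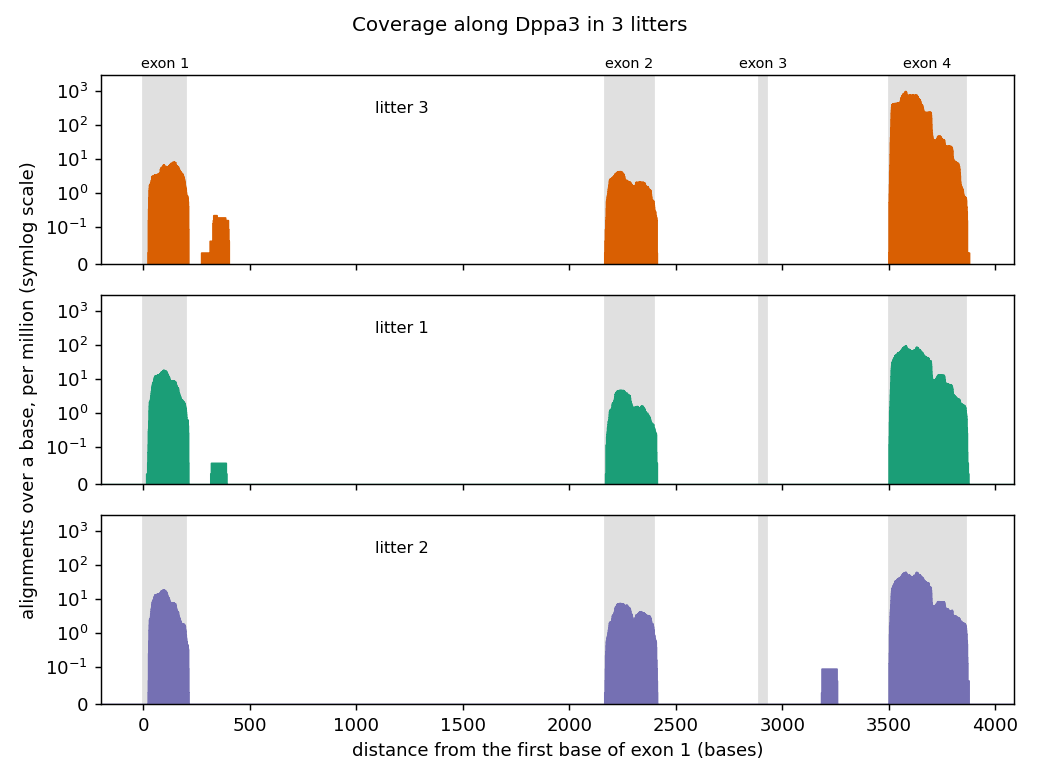
Alignments over each base, in CPM, on a symlog scale that is linear under 0.1, against the distance from the first base of exon 1, for the 3 litters. Grey bands are the matched exons; the 3 litters cover exons 1, 2 and 4, and the depth of litter 3 is far above that of both other litters over most of exon 4.

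Summed by exon, the high value of litter 3 lay in exon 4 and in neither exon 1 nor exon 2. Exon 1, which holds the start of the coding sequence, had 11.1 CPM in litter 3, against 21.5 in litter 1 and 21.4 in litter 2, and was lowest in litter 3. Exon 2 had 6.84 CPM in litter 3, against 6.48 in litter 1 and 12.2 in litter 2, with litter 2 the highest. Exon 4, which ends the coding sequence and carries the whole 3' untranslated part, had 1510 CPM in litter 3, against 178 in litter 1 and 122 in litter 2.

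Divided by the mean of the other litters, litter 3 stood at 10.1 in exon 4, at 0.517 in exon 1 and at 0.733 in exon 2. The same ratio for litter 1 was 0.219 in exon 4, 1.32 in exon 1 and 0.682 in exon 2. For litter 2 it was 0.144 in exon 4, 1.31 in exon 1 and 1.83 in exon 2. Exons 1 and 2 together had 17.9 CPM in litter 3, against 28.0 in litter 1 and 33.5 in litter 2 (26.5 ± 7.91, SD, n = 3), so that the highest litter was 1.87 times the lowest. In exon 4, the highest was 12.4 times the lowest.

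Exon 4 also led in the litters without that peak. It held 98.8% of exonic alignments in litter 3 (95% Wilson interval 98.7 to 98.9), against 86.5% in litter 1 (85.6 to 87.2) and 78.4% in litter 2 (77.2 to 79.5), a mean of 87.9% ± 10.3 (SD, n = 3). Levels of exons are compared per 1000 bases at which an alignment could start. On that scale exon 4 had 5170 CPM in litter 3, against 611 in litter 1 and 416 in litter 2. Exon 1 had 85.3, 165 and 164, and exon 2 had 42.2, 40.0 and 75.2, in litters 3, 1 and 2. The log2 ratio of exon 4 over exon 1 was 5.92 in litter 3, against 1.89 in litter 1 and 1.34 in litter 2 (3.05 ± 2.50, SD, n = 3). When each start was counted once, its mean over the litters was 0.27. Without litter 3 it was 1.61.

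**Figure D2:**
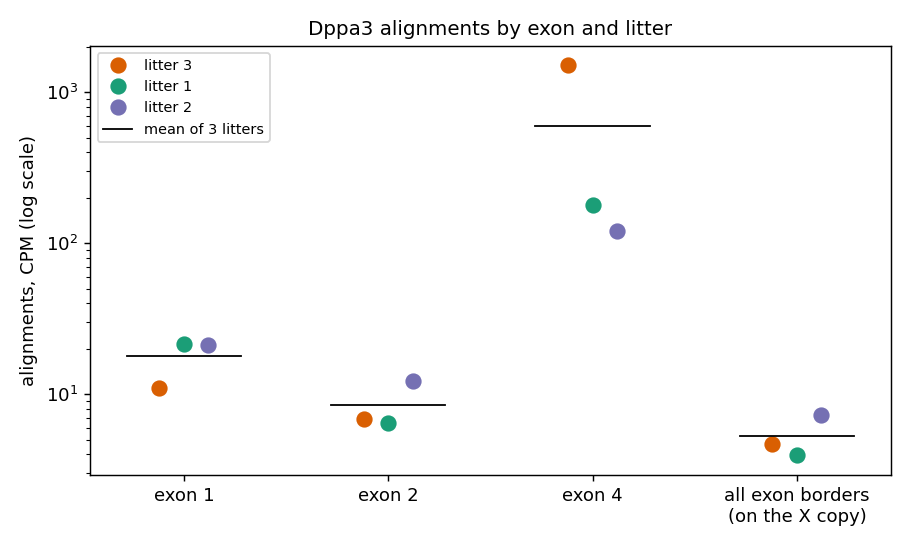
Alignments in CPM on a log axis in exons 1, 2 and 4 of Dppa3 and over all exon borders as placed on the X copy, with 1 point for each litter and a line at the mean. Litter 3 is the highest point in exon 4, at 1510 CPM, and the lowest in exon 1.

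Few start positions of exon 4 were left unread. Of its 292 possible starts, 271 were used in litter 3, against 249 in litter 1 and 232 in litter 2, with 178, 25.2 and 16.7 alignments for each used start. The starts lay toward the 5' side: the first 144 held 96.0% of the alignments of the exon in litter 3, against 90.6% in litter 1 and 90.7% in litter 2. The far end of the 3' untranslated part was thus thinly read.

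Along exon 4 the lead of litter 3 over the mean of the others was uneven. Cut into stretches of 12 starts, the exon gave 15 stretches with at least 300 alignments, with this CPM ratio over 5 in 9 of them and under 1 in 1. It was highest for starts 49 to 60, with 7618 alignments in litter 3, against 416 in litter 1 and 230 in litter 2, a CPM ratio of 25.0. It was lowest for starts 25 to 36, with 152, 346 and 241 alignments in litters 3, 1 and 2, a ratio of 0.545. Starts 109 to 120 held 474 alignments in litter 3, against 501 in litter 1 and 357 in litter 2, a ratio of 1.16, between stretches on both sides that were higher in litter 3. Between litters 2 and 1 the CPM ratio varied less over the same 15 stretches, from 0.461 to 0.789.

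**Figure D3:**
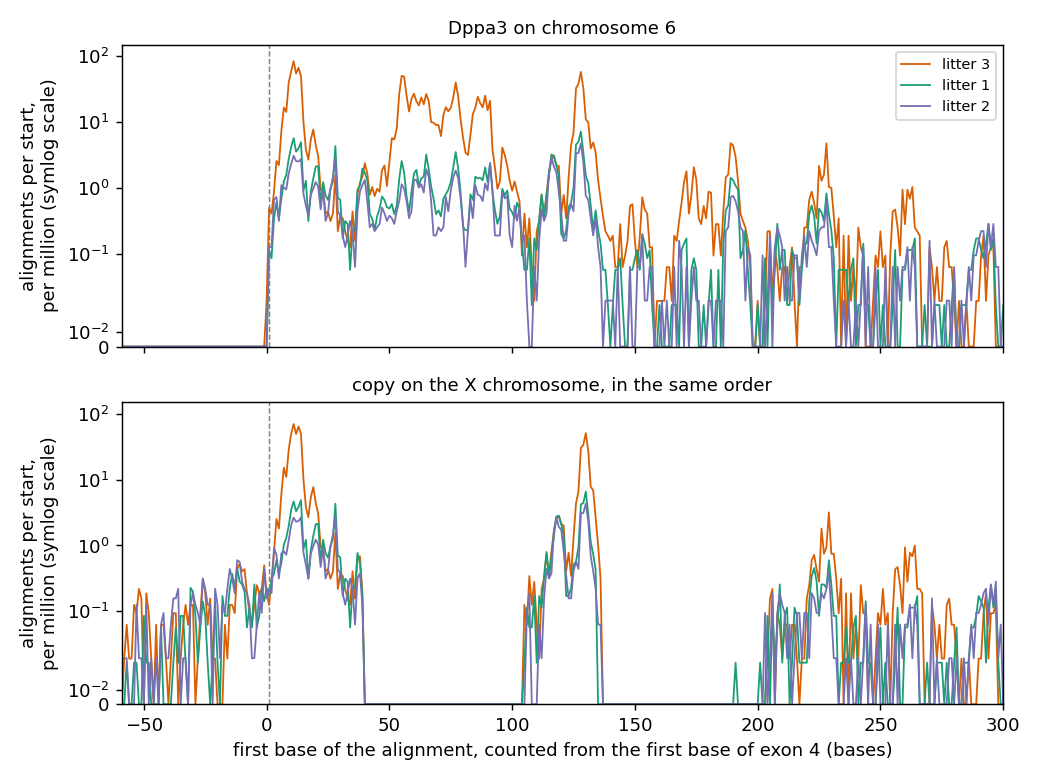
Alignments per start position, in CPM, on a symlog scale that is linear under 0.05, counted from the first base of exon 4 (dashed line), for Dppa3 (top) and for the copy on the X chromosome in the same order (bottom). Litter 3 is above the others over most of exon 4, comes level with them at starts 109 to 120, and lies near them just left of the exon border on the copy; the copy has no alignments at starts 40 to 102.

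The copy on the X chromosome lay at chrX:35039879-35040705, in reverse orientation, and was covered as 1 block of 827 bases. It held 20432 alignments in litter 3, against 4121 in litter 1 and 3205 in litter 2, which is 638, 117 and 101 CPM. Its place was found from start positions whose counts matched those of Dppa3 in all litters. Such counterparts moved by 1966 bases between exons 1 and 2 and by 1064 between exons 2 and 4, which are the lengths of intron 1 and of introns 2 and 3 together. The copy thus lacks the introns. Further along exon 4 the counterparts moved by up to 2 bases.

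Alignments well across the exon borders could not be placed on Dppa3 itself and were read on the copy. Whether other pseudogenes received some of them was not examined, so the border values are those of the X copy alone. With at least 24 bases on each side, the border of exons 1 and 2 had 2.19 CPM in litter 3, against 2.59 in litter 1 and 4.47 in litter 2. The border of exons 2 and 3 had 0.656 CPM in litter 3, against 0.142 in litter 1 and 0.472 in litter 2, from 21, 5 and 15 alignments. The border of exons 3 and 4 had 1.84 CPM in litter 3, against 1.22 in litter 1 and 2.33 in litter 2, from 59, 43 and 74 alignments. All 3 borders together had 4.68, 3.95 and 7.27 CPM in litters 3, 1 and 2, with litter 2 the highest. Litter 3 was at 0.835 times the mean of the others over all borders, at 0.917 times with a margin of 12 bases and at 1.20 times with a margin of 1 base.

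The borders were not alike at narrow margins. Alignments with under 24 bases in exon 1 and the rest in exon 2 had 7.56 CPM in litter 3, against 1.62 in litter 1 and 3.78 in litter 2, and were highest in litter 3. Those with under 24 bases in exon 4 and the rest before it had 1.22 CPM in litter 3, from 39 alignments, against 0.256 and 0.535 in litters 1 and 2, from 9 and 17. Those with under 24 bases in exon 3 or before it and the rest in exon 4 had 4.12 CPM in litter 3, against 3.78 in litter 1 and 4.75 in litter 2. These margins were chosen after the values had been seen, and the borders themselves are known to about 12 bases.

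The first 25 starts wholly within exon 4 had 439 CPM in litter 3, against 42.3 in litter 1 and 27.7 in litter 2 on chromosome 6. Their counterparts on the copy had 389, 39.0 and 25.6 CPM in the same litters. So on the copy litter 3 stood at 12.1 times the mean of the others for alignments that began inside exon 4, and at 1.04 times for those with at least 24 bases on each side of the border of exons 3 and 4. What made the step at this border was not tested.

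In exon 4 the high value of litter 3 was as large where the copy received nothing. At all 120 exon 4 starts with no alignment on the copy, litter 3 stood at 14.0 times the mean of the others. At the exon 1 starts with none on the copy this ratio was 0.361. A run of 63 of the 120 exon 4 starts, numbers 40 to 102, held 24797 of their 25572 alignments in litter 3. It held 774 CPM in litter 3, against 63.8 in litter 1 and 42.5 in litter 2, a ratio of 14.6 for litter 3 over the mean of the others. At the 92 starts whose counterparts on the copy had other counts, exon 4 had 681 CPM in litter 3, against 89.1 in litter 1 and 61.4 in litter 2, a ratio of 9.05. A further 71 starts had identical counts at both places in all 3 litters, with 955, 729 and 462 alignments in litters 3, 1 and 2. Equality in litter 3 was part of how these 71 were chosen, so nothing is read from their ratio. Without such starts in any exon the mean level of the region was 606 CPM. Runs of 3 starts with at least 50 alignments whose counts recurred elsewhere numbered 15, all of them at the copy. They held 1.50% of the alignments of the region in litter 3, against 8.49% in litter 1 and 7.89% in litter 2 (5.96% ± 3.87, SD, n = 3). With a minimum of 10 alignments there were 505 such runs, of which 83 lay at the copy, and they held 2.27%, 12.2% and 14.1% of the alignments in litters 3, 1 and 2.

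Differences between the litters were common across the genome, so the windows of Dppa3 were read against all windows. Of 10913 windows of 1 kb with a mean of at least 10 CPM, 53.0% differed between litters by at least 2-fold with an adjusted p under 0.05 (chi-square test against counting error, Benjamini-Hochberg), and 27.8% did so with litter 3 the highest. Of the 3 tested windows of the Dppa3 region, 2 were called, both with litter 3 the highest and both over exon 4. The test sets single libraries of amplified reads against counting error alone, so at counts as high as these a call says little, and the size of the ratio is given next to it. The third, over exon 1, had 12.1 CPM in litter 3, against 22.3 in litter 1 and 21.9 in litter 2 and was not called. The window over exon 2, with a mean of 8.94 CPM, fell under the minimum, and that between exons 1 and 2 held 0 alignments.

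By size the exon 4 windows were among the extremes. The first, from 122579001, had 1035 CPM in litter 3, against 99.7 in litter 1 and 66.0 in litter 2. Litter 3 stood there at 12.4 times the mean of the others, and 16 of the 10913 tested windows (0.147%) were higher. The second, from 122580001, had 475, 79.6 and 56.6 CPM, a ratio of 6.93, which 147 windows (1.35%) exceeded. Over all tested windows the ratio had a median of 1.05, and 90% of them lay between 0.231 and 4.03. The first of these windows ranked 85 by CPM in litter 3, against 941 in litter 1 and 1613 in litter 2.

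Other genes of the egg gave a scale for these levels. Of 54 genes in lists of oocyte markers, stored maternal factors, DPPA3 partners, cumulus and blood cell markers and neighbours, 13 could be placed by their exons and 41 were not analysed here. Among the 13 were 5 oocyte markers, 5 maternal factors and 3 partners. None of the 10 cumulus cell and 3 blood cell markers was placed, so the purity of the oocytes was not tested. Levels are given as RPKM, the CPM per 1000 bases at which an alignment could start.

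On that scale Dppa3 had 2616 RPKM in litter 3, against 353 in litter 1 and 266 in litter 2 (1078 ± 1332, SD, n = 3). Its mean was the highest of the 14 genes, with an SD that reached past the mean of the next. This mean rested largely on exon 4: on the same scale exon 1 had a mean of 138 and exon 2 of 52.5. Npm2, a histone chaperone of the egg, had 645 RPKM in litter 3, against 1194 in litter 1 and 1171 in litter 2 (1004 ± 311). In litters 1 and 2 Npm2 was therefore above Dppa3. Next came Oosp1, a secreted oocyte protein, with 224 ± 28.5 RPKM. Padi6 and Nlrp5, both needed for the cytoplasmic lattices of the egg, had 147 ± 68.3 and 141 ± 43.5 RPKM (SD, n = 3). These last 2 did not differ beyond their spread.

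Of the partners, Uhrf1 had 65.4 RPKM in litter 3, against 116 in litter 1 and 142 in litter 2 (108 ± 38.9, SD, n = 3). Over all exons Dppa3 was thus above Uhrf1 in each litter, though this rested largely on exon 4. Per 1000 possible starts, exon 2 was below Uhrf1 in each litter, at 42.2, 40.0 and 75.2 CPM in litters 3, 1 and 2. Exon 1 was above Uhrf1, at 85.3, 165 and 164 CPM. Trim28, a co-repressor that protects imprints in the embryo, had 17.7 ± 5.98 RPKM, and Dnmt3l, the cofactor of DNA methylation in growing oocytes, had 7.80 ± 2.06. The lowest oocyte marker was Zp3, a zona pellucida protein, at 39.0 ± 15.8 RPKM. Zp1 and Zp2, of the same coat, had 112 ± 27.8 and 66.1 ± 3.42. Kit, the receptor for stem cell factor, had 71.2 ± 18.5 RPKM, Tle6, of the subcortical maternal complex, 61.3 ± 36.5, and Ctcf, a chromatin insulator protein, 33.7 ± 13.5.

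Over the litters no placed gene followed Dppa3. Litter 3 stood at 8.45 times the mean of the others for Dppa3 and between 0.254 and 1.21 for the other 13, with a median of 0.545. It was the lowest litter in 12 of them. Exons 1 and 2 of Dppa3, at 0.583, lay close to that median. By the distance between centred log2 RPKM over the 3 litters, the nearest genes were Oosp1 at 2.31, Zp2 at 2.60 and Zp1 at 3.06. A distance of 0 would be the same pattern.

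A last exon that departs from the rest was found in other genes too, though at smaller size in litter 3. In Dppa3 the ratio for litter 3 was 17.3 times as high in the last exon as in the others. In the other 13 genes this quotient ran from 0.248 in Zp3 to 6.47 in Trim28, with a median of 0.751, and 6 of 13 were above 1. The same quotient for litter 1 was 0.201 in Dppa3 and 0.526 to 5.91 in the others, and for litter 2 it was 0.0986 in Dppa3 and 0.199 to 1.41 in the others. The last exon alone stood in litter 3 at 10.1 times the mean of the other litters for Dppa3, and between 0.128 and 2.28 for the 13.

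**Figure D4:**
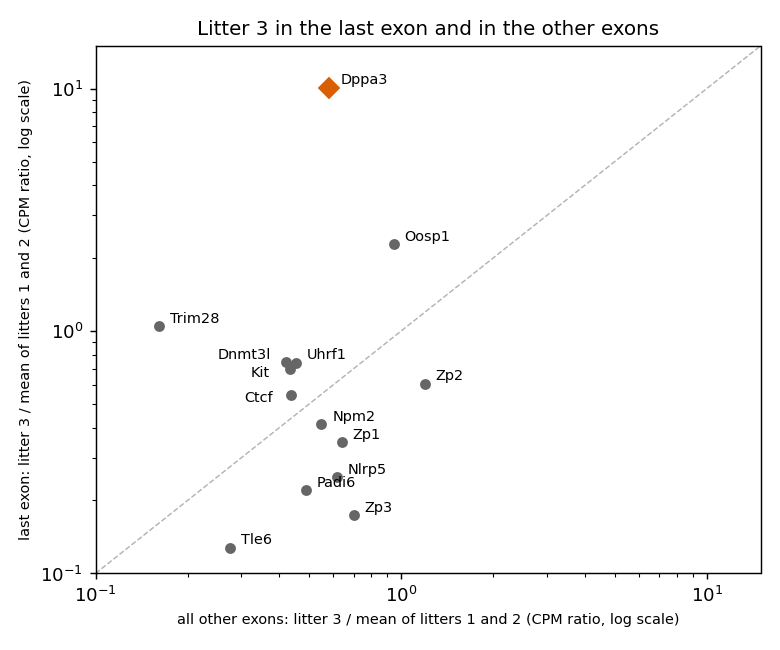
Litter 3 over the mean of litters 1 and 2, as a ratio of CPM, in the last exon (vertical, log axis) and in all other exons (horizontal, log axis), with 1 point for each placed gene; the dashed line marks equal ratios. Dppa3 lies highest, at 10.1 in its last exon and 0.583 in the others, and the 13 other genes lie at or under 2.28 in the last exon.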

How the data were processed

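RNA-seq of 3 oocyte libraries was used, 1 for each litter. The authors deposited raw coverage (the signal in each file), namely the number of alignments over each base, not scaled to depth. Reads were aligned with Bowtie to mm9, per the submitters' processing notes; version, settings and placements allowed for a read: not given in the sources used here. The tracks came from lanes 8, 3 and 4 for litters 3, 1 and 2, per the file headers, so lane and litter cannot be told apart. Among isolated blocks of depth 1, 99.9% were 72 bases long, so coverage was turned into alignments of 72 gapless bases. Starts were the step in depth plus the starts 72 bases earlier, tested on simulated data, and gave 0 negative values. Counts were scaled to library totals, the summed depth divided by 72.

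The annotation, GENCODE M21, is of GRCm38. No coordinates were converted: exon and intron lengths were slid over each whole chromosome of the mm9 coverage. A place needed at least 80% of alignments within exons, at least 100 alignments and no empty exon of 72 or more bases. The design foresaw a genome search for copies; annotated transcripts were searched in its place. Printed sequences come from those transcripts. Named genes are Dppa3, its exons, windows and neighbours, and all listed genes that could be placed. The 3 nearest in pattern are also given. The members and lists were chosen with earlier results of these data known. Alternatives were leaving out each litter, counting starts once, other totals, size factors, flanks, pseudocounts, exon assignments, minimum levels and fold limits. Replicates are litters per the labels; no second label says whether females were pooled. Python 3.11.15, numpy 2.4.6, pandas 2.3.3, scipy 1.17.1 and biopython 1.88 were used.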

Additional observations from a re-analysis of the deposited data

How the results depend on the processing

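Of 48 alternative values, 0 reversed and 12 moved by more than the SD between litters or, for the spread, beyond its counting interval or, for counts of windows, by over 1.5 times. The SD is wide, so values that moved less can still differ much: the log2 ratio of exon 4 over exon 1 was 1.61 without litter 3, against 3.05 with it, and recurring runs held 9.53% of alignments with a minimum of 10, against 5.96%. Counting each start once lowered the log2 ratio of region over flanks to 4.17, the log2 ratio of exon 4 over exon 1 to 0.27 and the spread between litters to 1.11. The level of the region was then 97.1 starts for every 1000000 start positions used in a library, a scale unlike CPM. The spread, highest litter over lowest, was 10.1 with median-of-ratios size factors. With litters left out in turn it ran from 1.32, without litter 3, to 9.71, and the level from 183 to 869 CPM. The number of windows that vary between litters ran from 870, without litter 3, to 5055, against 5781 with all 3 litters. It was 32435 with a minimum of 1 CPM and 1750 with a 4-fold limit. Alternatives chosen after seeing the data gave a spread of 1.87 in exons 1 and 2, 12.4 in exon 4 and 10.8 without starts whose counts were identical on the X copy. The cause of these changes was not tested. No paired analysis was possible because 1 group of litters is all there is. Flanks without the exons of matched neighbours were not run, since no neighbour was placed. Depth limits the flank before Dppa3 and the exon borders, read by few alignments.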

Other observations

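Inside the introns of Dppa3 only a few alignments were found. A stretch of intron 1, chr6:122576693-122576821, held 7 alignments in litter 3, against 2 in litter 1 and 0 in litter 2. One in intron 3, chr6:122579604-122579677, held 0, 0 and 3 in the same litters.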
